A study of Homo sapiens with 6 samples.

Results

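The 9 genes of MHC class I antigen presentation described here were HLA-B, HLA-C, HLA-E, B2M, TAP1, TAP2, PSMB8, PSMB9 and NLRC5. They were chosen by name from the class I pathway and are 9 of the 61014 annotated genes with a transcript in the count table. The samples were 3 BCSC and 3 non-BCSC libraries of total RNA from MDA-MB-231, an established human triple-negative breast cancer line. All 6 libraries came from cells that had been made resistant to paclitaxel (PTX), a microtubule-stabilizing drug, so no library shows drug-sensitive cells. The study separated BCSC (breast cancer stem cells, ALDH+) from non-BCSC (ALDH-) by sorting on aldehyde dehydrogenase activity, and the comparison asks how the sorted fractions differed in RNA. The titles name BCSC and non-BCSC, although the cell type label reads breast cancer stem cells for all 6 libraries.

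MHC class I molecules show peptides from inside a cell to CD8+ T cells. The proteasome cuts proteins into peptides, and interferon-inducible subunits such as PSMB8 and PSMB9 replace constitutive ones to form the immunoproteasome. The TAP1 and TAP2 transporter moves the peptides into the endoplasmic reticulum, where they are loaded onto a heavy chain (such as HLA-B, HLA-C or the less polymorphic HLA-E) paired with the light chain beta-2 microglobulin (B2M). NLRC5 is the coactivator of class I genes, IRF1 and NF-kappaB also act on their promoters, and loss of class I expression is a known way for tumors to escape T cells.

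RefSeq promoter windows (GRCh38.p14, 250 bases before to 50 after a gene's start) were at hand for 7 of the 9 genes, in 9 windows, because TAP1 and PSMB8 have a pair each. HLA-E and NLRC5 are named only. The windows below are shown because they belong to the heavy chain and the transporter genes that were called higher in BCSC and to the light chain, which was not called. Capitals mark matches, on either strand, to 4 motifs: the interferon regulatory factor (IRF) core AANNGAAA, the NF-kappaB decamer, the cAMP response element core TGACG and the inverted CCAAT box ATTGG. HLA-B is at chr6:31357130-31357429, minus strand. HLA-C is at chr6:31272043-31272342, minus strand. B2M is at chr15:44711267-44711566, plus strand. The first of the pair of TAP1 windows in the table, shown here, is at chr6:32853655-32853954, minus strand, and the other holds no match to the 4 motifs. TAP2 is at chr6:32838690-32838989, minus strand.
HLA-B: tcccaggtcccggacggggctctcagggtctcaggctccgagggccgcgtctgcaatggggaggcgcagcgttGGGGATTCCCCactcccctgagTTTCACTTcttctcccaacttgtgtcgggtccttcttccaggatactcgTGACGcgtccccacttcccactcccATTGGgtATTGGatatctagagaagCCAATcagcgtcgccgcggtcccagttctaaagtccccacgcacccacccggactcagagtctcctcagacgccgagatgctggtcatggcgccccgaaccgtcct
HLA-C: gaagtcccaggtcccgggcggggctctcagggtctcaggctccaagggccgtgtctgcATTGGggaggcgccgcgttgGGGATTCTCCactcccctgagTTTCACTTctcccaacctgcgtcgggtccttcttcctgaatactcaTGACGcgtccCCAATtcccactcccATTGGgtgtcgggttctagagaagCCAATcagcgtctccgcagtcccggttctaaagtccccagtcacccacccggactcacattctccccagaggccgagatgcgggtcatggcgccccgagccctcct
B2M: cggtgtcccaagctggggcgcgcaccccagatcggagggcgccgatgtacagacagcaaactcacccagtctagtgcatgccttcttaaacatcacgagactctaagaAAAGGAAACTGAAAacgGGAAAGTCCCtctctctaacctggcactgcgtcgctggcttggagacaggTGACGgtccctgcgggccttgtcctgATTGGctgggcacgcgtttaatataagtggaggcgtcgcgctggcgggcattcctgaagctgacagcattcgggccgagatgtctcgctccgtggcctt
TAP1: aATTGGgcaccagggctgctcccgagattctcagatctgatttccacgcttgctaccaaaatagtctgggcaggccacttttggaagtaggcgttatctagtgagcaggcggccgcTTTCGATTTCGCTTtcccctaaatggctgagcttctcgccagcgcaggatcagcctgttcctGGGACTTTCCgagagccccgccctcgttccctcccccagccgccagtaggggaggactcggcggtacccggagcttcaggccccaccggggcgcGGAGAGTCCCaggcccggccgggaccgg
TAP2: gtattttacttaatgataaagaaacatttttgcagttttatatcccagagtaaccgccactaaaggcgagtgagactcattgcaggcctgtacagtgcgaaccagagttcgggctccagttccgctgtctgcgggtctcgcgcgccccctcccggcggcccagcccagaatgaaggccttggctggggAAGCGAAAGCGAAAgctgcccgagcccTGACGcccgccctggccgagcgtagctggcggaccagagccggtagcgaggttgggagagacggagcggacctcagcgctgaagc

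The IRF core was found in a window of 6 of the 7 genes and in 22.8% of all 35116 promoter windows of this length. The cAMP response element core was found in 6 of the 7 genes against 24.6% of all windows, the CCAAT box in 5 against 34.6% and the NF-kappaB decamer in 4 against 5.91%. A gene was counted if any of its windows matched, whereas the shares are of single windows. TAP1 and PSMB8, with a pair of windows each, thus had more chances of a match. No match overlapped a match to a different motif. HLA-B, HLA-C and B2M held all 4 motifs, with the cAMP response element core starting 106, 105 and 75 bases before the start, respectively. The HLA-B and HLA-C windows were 88.5% identical. TAP1 and PSMB9, which read in opposite directions, start 488 bases apart on chromosome 6, and the PSMB9 window held neither the IRF core nor the NF-kappaB decamer. The motifs were chosen with these sequences in view, and a match is a string of letters, not a measured binding site.

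The libraries held 9898588 to 21215352 counts, and the 3 BCSC libraries were the deeper ones. Levels are given in CPM, the usual unit of counts scaled to the size of the library. A count of 0 allowed a level of up to 0.141 to 0.303 CPM by counting error alone. Nothing in the labels says that replicates were separate cultures, so the p-values measure the spread between these libraries, which may be technical. Vimentin (VIM), a mesenchymal marker of the line, was abundant in both groups (3418 ± 412 and 2793 ± 506 CPM in BCSC and non-BCSC, SD, n = 3). The epithelial keratin KRT8 was lower in BCSC, at 6.59 ± 1.82 CPM against 58.6 ± 10.01 CPM. The estrogen receptor gene ESR1 was at 4.47 ± 0.99 and 10.2 ± 5.03 CPM in BCSC and non-BCSC. The progesterone receptor gene PGR was lower in BCSC, at 0.753 ± 0.563 CPM against 13.9 ± 6.06 CPM. Per kilobase of its long transcripts, PGR was at only 1.15 ± 0.50 CPM in non-BCSC. NLRC5, found below to be close to the background there, was at 1.08 ± 0.91. ERBB2 was higher than ESR1 and PGR, at 64.7 ± 8.71 CPM in BCSC and 78.3 ± 11.5 CPM in non-BCSC. Summed counts of 8 immune cell markers were 1.04 to 2.80 CPM in BCSC and 17.0 to 32.4 CPM in non-BCSC, with CD3D at 0 in the 3 BCSC libraries and NKG7 at 0 in all 6. The 10 class II genes, the products of professional antigen-presenting cells, summed to 5.21 to 6.22 CPM in BCSC and 7.55 to 26.4 CPM in non-BCSC, and HLA-DQA1 was at 0 in all 6. The immune and class II sums were both lower in BCSC, as was the background measure given below, and the source of these counts was not tested. The pan-leukocyte marker PTPRC was at 0.579 ± 0.503 CPM in BCSC and 18.8 ± 4.98 CPM in non-BCSC. COL1A1, a stromal collagen, was at 5.21 ± 2.71 CPM in BCSC and 9.72 ± 3.87 CPM in non-BCSC, with overlap. The 391 olfactory receptor genes, which such cells are not known to use and which serve here as a measure of background, summed to 36.95 to 145 CPM in BCSC and 519.6 to 1180.4 CPM in non-BCSC.

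Of the 9 class I genes, 6 rose in BCSC and none fell. HLA-B, HLA-C, TAP1, TAP2, PSMB8 and NLRC5 passed edgeR's quasi-likelihood test at a Benjamini-Hochberg adjusted p under 0.05 with a fold over 2, the rule for every call here. Over all 20442 genes tested, 8.85% were called higher and 11.3% were called lower by that rule. All 9 genes passed the filter on low counts. PSMB9 and B2M passed the adjusted p but not the fold, so 8 of 9 passed the adjusted p. In 8 of 9 genes each BCSC library lay above each non-BCSC library, against 24.2% of all genes tested, and HLA-E was the exception. The median log2 fold change of the 9 genes was 1.73, and that of all genes tested was -0.05. Of all genes tested with a GC content of 50% to 62%, 23.1% were called higher and the median was 0.72. All of the 9 genes but TAP2 and B2M lie in that range. Fold changes in this series rose with GC content. Fits were therefore also run with a correction for GC content and length, or for GC content alone. Their values are given, beside the result or further below, for the class I genes, partners and regulators whose call they end. With either correction 3 of the 9 genes were called. In bulk RNA, fewer cells that express a gene and less of its RNA per cell cannot be told apart.

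**Figure D1:**
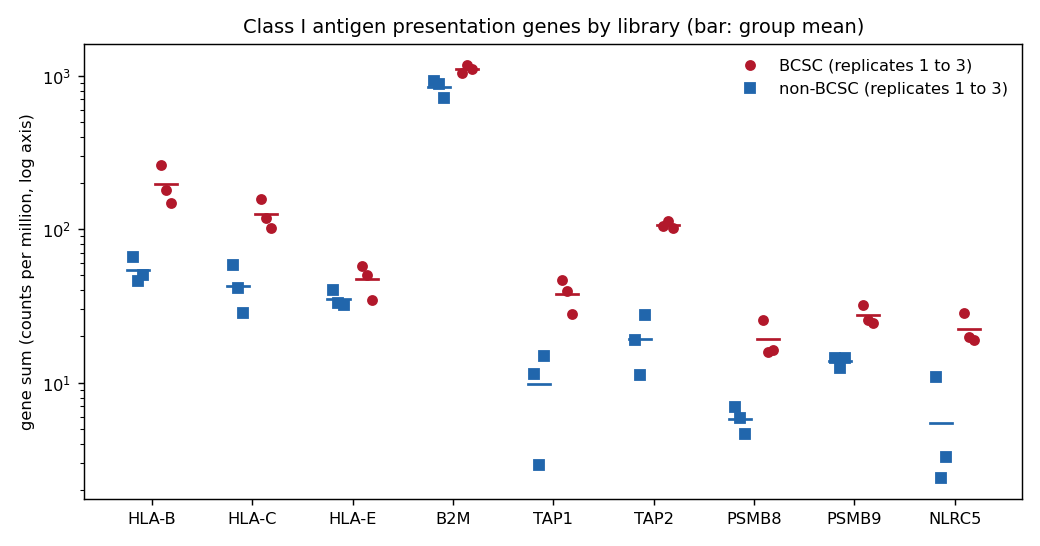
Gene sums in CPM (log axis) for the 9 class I genes, with 1 point per library and a bar at each group mean. BCSC libraries (circles) lie above non-BCSC libraries (squares) for 8 genes. For HLA-E the lowest BCSC value of 34.4 CPM is below the highest non-BCSC value of 40.02 CPM.

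Among the heavy chains, HLA-B rose and was called under the 15 alternatives run on it, HLA-C rose without a composition correction and HLA-E did not pass the test. HLA-B, which presents peptides to T cells and carries ligands of killer cell receptors, was at 263, 181 and 148 CPM in BCSC replicates 1 to 3 and at 65.4, 46.2 and 49.96 CPM in non-BCSC replicates 1 to 3. Its lowest BCSC value was above the highest non-BCSC value by more than the range of the non-BCSC libraries. Its log2 fold change was 1.87 ± 0.22 (SE, edgeR adjusted p = 0.00071). HLA-C, the main heavy chain ligand of killer cell immunoglobulin-like receptors, was at 157, 118 and 102 CPM in BCSC, against 58.8, 41.5 and 28.4 CPM in non-BCSC. The groups did not overlap, and the log2 fold change was 1.55 ± 0.26 (edgeR adjusted p = 0.0032). The call ended with GC content and length corrected (-0.11), with GC content alone corrected (0.51) and for the most counted transcript alone (edgeR adjusted p = 0.52). HLA-E, which presents leader peptides of other class I chains to the NKG2A receptor of natural killer cells, was at 57.6, 50.1 and 34.4 CPM in BCSC, against 40.02, 33.0 and 32.0 CPM in non-BCSC. BCSC replicate 3 fell within the non-BCSC range, and the log2 fold change of 0.43 ± 0.22 was not called (edgeR adjusted p = 0.15). With GC content and length corrected HLA-E was at -0.72 (edgeR adjusted p = 0.0038).

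The light chain B2M was the most abundant of the 9 genes by far. It was at 1038, 1180 and 1101 CPM in BCSC, against 917, 887 and 711 CPM in non-BCSC. Every BCSC library was higher, but the difference was below the fold threshold, with a log2 fold change of 0.40 ± 0.11 (edgeR adjusted p = 0.027). Its adjusted p rose above 0.05 in 3 of the 6 fits that left out 1 library, to 0.103 without BCSC replicate 2, 0.0525 without BCSC replicate 3 and 0.0644 without non-BCSC replicate 3. With GC content and length corrected it was called, at 1.63 (edgeR adjusted p = 0.00018), and with GC content alone corrected it had 0.40.

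HLA-B and HLA-C were also higher relative to the light chain within the same libraries. Per kilobase of transcript, HLA-B was at 0.0732, 0.0443 and 0.0388 of the B2M level in BCSC and at 0.0206, 0.0150 and 0.0203 in non-BCSC. The mean ratio was 2.79 times higher in BCSC and the groups did not overlap. For HLA-C the ratio to B2M was 0.0759 ± 0.0214 in BCSC and 0.0333 ± 0.0083 in non-BCSC (SD, n = 3), 2.28 times higher and again without overlap. For HLA-E it was 0.0174 ± 0.0049 and 0.0170 ± 0.0017, with overlap. These ratios do not depend on how a library was scaled and were not tested. They do depend on composition: with GC content and length corrected the log2 fold change of B2M (1.63) was above those of HLA-B (1.17) and HLA-C (-0.11), and with GC content alone corrected B2M (0.40) was near HLA-C (0.51) and below HLA-B (1.26).

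Class I heavy chain genes resemble each other, so reads can be assigned to the wrong one. Of the 50-base stretches in the most counted transcript of each gene, 1.09% in HLA-B, 6.77% in HLA-C and 4.76% in HLA-E occurred exactly in a transcript of another heavy chain gene or pseudogene. These are annotated sequences, not the alleles of this line, and the HLA-B transcript is annotated as a retained intron. The shares therefore do not measure how many reads were assigned wrongly.

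Both subunits of the peptide transporter rose, TAP2 with and TAP1 without a composition correction. TAP2 had the largest fold change of the 9 genes, at 105, 113 and 101 CPM in BCSC, against 19.1, 11.2 and 27.6 CPM in non-BCSC. The BCSC values were close together and all far above the non-BCSC values, with a log2 fold change of 2.47 ± 0.28 (edgeR adjusted p = 0.00059). Its call ended with the most counted transcript alone (edgeR adjusted p = 0.42). TAP1 was at 46.5, 39.3 and 28.1 CPM in BCSC, against 11.4, 2.92 and 14.96 CPM in non-BCSC. Its non-BCSC replicate 2 was the lowest, the groups did not overlap, and the log2 fold change was 1.96 ± 0.48 (edgeR adjusted p = 0.015). It was 0.64 with GC content and length corrected and 1.05 with GC content alone corrected (edgeR adjusted p = 0.29 and 0.11), which ended the call. The ratio of TAP1 to TAP2 per kilobase was 0.761 ± 0.178 in BCSC and 0.997 ± 0.387 in non-BCSC, which overlapped.

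Of the immunoproteasome subunits, PSMB8 rose and PSMB9 stopped just short of the fold threshold. PSMB8, the chymotrypsin-like subunit that takes the place of PSMB5, was at 25.7, 15.9 and 16.2 CPM in BCSC, against 6.93, 5.92 and 4.603 CPM in non-BCSC. The log2 fold change was 1.73 ± 0.32 (edgeR adjusted p = 0.0055), and 0.78 with GC content and length corrected. PSMB9, which takes the place of PSMB6, was at 32.2, 25.4 and 24.6 CPM in BCSC, against 14.4, 12.5 and 14.5 CPM in non-BCSC. Neither gene overlapped between the groups. The log2 fold change of PSMB9 was 0.99 ± 0.23 (edgeR adjusted p = 0.012), and it was called in 4 of the 6 fits that left out 1 library. Without BCSC replicate 1 its adjusted p was 0.0569. The PSMB9 gene overlaps PSMB8 and TAP1 on the opposite strand, so reads of shared stretches cannot be told apart if counting ignored strand.

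The immunoproteasome subunits were also set against the constitutive subunits they replace. PSMB5 itself rose without a composition correction, with a log2 fold change of 1.18 ± 0.21 (edgeR adjusted p = 0.0047). It was 0.38 with GC content and length corrected and 0.50 with GC content alone corrected (edgeR adjusted p = 0.20 and 0.082), which ended the call. The ratio of PSMB8 to PSMB5 per kilobase was 0.289 ± 0.027 in BCSC and 0.202 ± 0.055 in non-BCSC, with 1 overlapping library. PSMB6 had a log2 fold change of 0.34 ± 0.30 and was not called (edgeR adjusted p = 0.42). The ratio of PSMB9 to PSMB6 was 0.471, 0.403 and 0.765 in BCSC, against 0.253, 0.371 and 0.375 in non-BCSC. The groups did not overlap in this ratio, by a margin smaller than the range of either group.

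NLRC5, the coactivator of class I genes, rose from a low level. It was at 28.6, 19.8 and 19.0 CPM in BCSC, against 10.8, 2.39 and 3.26 CPM in non-BCSC. The groups did not overlap, and the log2 fold change was 2.03 ± 0.52 (edgeR adjusted p = 0.018). This call rested on single libraries: the adjusted p was 0.0668 without BCSC replicate 1, 0.0539 without non-BCSC replicate 2 and 0.0645 without non-BCSC replicate 3. Without non-BCSC replicate 1, its highest non-BCSC value, the log2 fold change was 3.04 (edgeR adjusted p = 0.0032). With GC content and length corrected it was 0.88 (edgeR adjusted p = 0.13). In non-BCSC the pooled NLRC5 counts per kilobase were 1.12 times those of the olfactory receptor genes, a level close to the background. Single non-BCSC libraries ranged from 0.439 to 3.10 times, so the lowest was below the background. The pooled ratio was 3.33 for TAP2, 3.61 for TAP1, 3.96 for PSMB8 and 12.5 to 829 for the other 5 genes. The olfactory receptor level was also subtracted from every library. This used the plain mean length of each gene's transcripts, not the count-weighted length behind the ratios. NLRC5 then had a log2 fold change of 2.55 (edgeR adjusted p = 0.14), and the other 5 called genes were still called. TAP1 was only just called in that fit (edgeR adjusted p = 0.0493), and in its lowest non-BCSC library it was at 1.21 times the olfactory receptor level.

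Levels can be compared between genes only per kilobase. In BCSC, B2M was at 1083 ± 69.5 CPM per kilobase, above HLA-C at 81.4 ± 18.6 and HLA-B at 55.8 ± 16.8 (SD, n = 3), which differed by less than the sum of their SDs. The HLA-B level rests on the length of the single transcript that held nearly all its counts. PSMB9 (24.8 ± 3.75), HLA-E (18.8 ± 4.70), TAP2 (18.5 ± 1.02), TAP1 (14.1 ± 3.46) and PSMB8 (12.9 ± 3.72) followed, each differing from its neighbor in that order by less than the sum of their SDs, and NLRC5 was lowest at 4.43 ± 1.06. In non-BCSC, B2M was at 821 ± 109 CPM per kilobase and NLRC5 at 1.08 ± 0.91, while PSMB8 (3.90 ± 0.78), TAP1 (3.63 ± 2.30) and TAP2 (3.36 ± 1.43) differed by less than their SDs. HLA-E was at 13.9 ± 1.72 in non-BCSC, above TAP2, whereas in BCSC those 2 genes differed by less than their SDs.

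The table was deposited by transcript, and the gene sums were steadier than the transcripts they were made of. Of 69 transcripts of the 9 genes with counts, 27 passed the filter and none was called by edgeR. At an unadjusted p under 0.05 there were 4, of which 3 were higher in BCSC. Over all 45898 transcripts tested, 0.597% were called higher and 0.187% were called lower. The biological coefficient of variation, edgeR's measure of spread beyond counting, was 1.02 for transcripts and 0.453 for gene sums. DESeq2, which tested 44 of these transcripts, called 5: TAP1-201, TAP2-201, HLA-B-252 and NLRC5-223 higher and PSMB9-208 lower.

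Counts of one gene moved from transcript to transcript between libraries of the same group. For TAP1 the counts of TAP1-201 were 899, 0 and 442 in BCSC and 0 in the 3 non-BCSC libraries, while those of TAP1-210, another protein-coding transcript, were 0, 419 and 0 in BCSC, against 100, 33 and 156 in non-BCSC. For PSMB9, PSMB9-207 held 602, 380 and 378 counts in BCSC, against 149, 0 and 0 in non-BCSC, and PSMB9-208 held 0 in the 3 BCSC libraries and 0, 131 and 114 in non-BCSC. Within non-BCSC, replicate 1 thus gave its PSMB9 counts to a different transcript than replicates 2 and 3. TAP2-207, the most counted TAP2 transcript, had 735, 1242 and 381 counts in BCSC, against 0, 0 and 162 in non-BCSC.

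**Figure D2:**
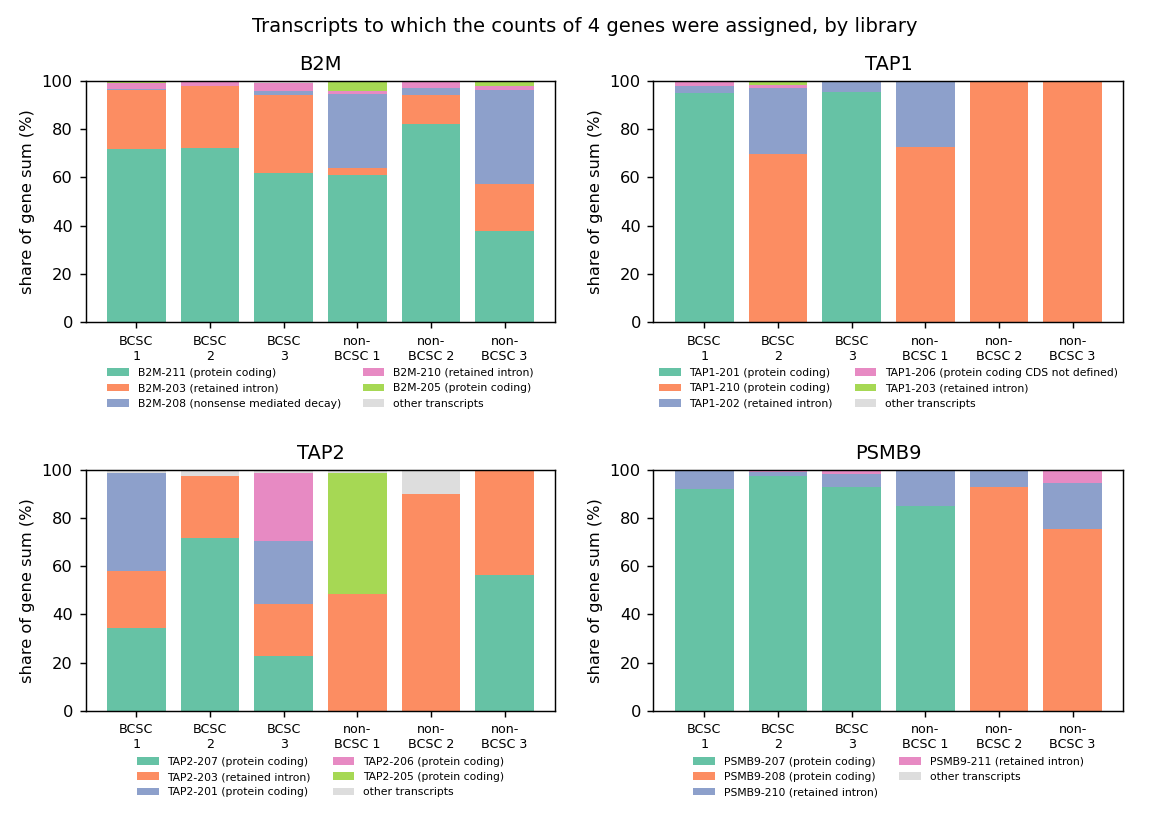
Share of the gene sum (%) assigned to each of the 5 most counted transcripts of B2M, TAP1, TAP2 and PSMB9 in each of the 6 libraries, with the rest in gray. TAP1 counts lie on TAP1-201 in BCSC replicates 1 and 3 (95.2% and 95.3%) and on TAP1-210 in BCSC replicate 2 (69.6%), so the switch of transcript occurs within a group.

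HLA-B counts lay almost wholly on 1 transcript. HLA-B-252, annotated as a retained intron transcript of 3547 bases, held 98.8% of the HLA-B counts in BCSC and 96.9% in non-BCSC, and the protein-coding HLA-B transcripts were at 0 in all 6 libraries. This transcript had 5311, 2679 and 2444 counts in BCSC, against 782, 522 and 476 in non-BCSC, with a log2 fold change of 1.99 ± 0.32 (edgeR adjusted p = 0.060, the smallest of the 27 tested). HLA-C-201, the protein-coding transcript, held 1882, 1661 and 1523 counts in BCSC, against 615, 360 and 0 in non-BCSC. The HLA-C counts of non-BCSC replicate 3 went to retained intron transcripts for 88.9%. HLA-E had nearly all its counts on HLA-E-201 (96.7% to 99.2% coding in each library).

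B2M counts were divided between B2M-211, the main coding transcript, and several others. B2M-211 held 68.8% of B2M counts in BCSC and 62.4% in non-BCSC. The retained intron transcript B2M-203 held 27.3% and 10.5%, respectively. B2M-208, annotated as a target of nonsense-mediated decay, held 0.697% in BCSC and 23.1% in non-BCSC, and it had 65, 3 and 332 counts in BCSC, against 3421, 305 and 2875 in non-BCSC. In CPM these were 3.59, 0.207 and 21.1 in BCSC, against 293, 27.7 and 274 in non-BCSC, without overlap. The log2 fold change was -4.58 ± 1.76 and was not called (edgeR adjusted p = 0.26). For PSMB8 the most counted transcript was PSMB8-202 with 237, 120 and 85 counts in BCSC, against 46, 0 and 16 in non-BCSC, and for NLRC5 it was NLRC5-201 with 394, 91 and 223 and with 92, 9 and 27.

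Of 15 partners of the 9 genes in the pathway, 14 passed the filter, 4 rose and none fell. The share of all genes called higher was 8.85%, and that of the well counted genes at 50% to 55% GC was 25.7%. That bin does not match all partners, which had 40.8% (CANX) to 62.3% GC (PSMB10). The share was 7.54% at 45% to 50% GC, where PSMB7 lies, and 49.1% at 55% to 60%, where TAPBP lies. The 4 were tapasin and 3 proteasome genes, of which PSMB7 was still called under both composition corrections (1.17 and 1.04). TAPBP (tapasin), which holds the heavy chain at the transporter, was at 205, 168 and 145 CPM in BCSC, against 61.0, 47.8 and 46.8 CPM in non-BCSC, a log2 fold change of 1.74 ± 0.16 (edgeR adjusted p = 0.00026). PSME2, a subunit of the proteasome activator PA28, had a log2 fold change of 1.36 ± 0.20 (edgeR adjusted p = 0.0018), and the constitutive subunit PSMB7 had 1.47 ± 0.29 (edgeR adjusted p = 0.0063). With GC content and length corrected TAPBP had 0.43 and PSME2 0.98. With GC content alone corrected they had 0.83 and 0.90, so both were below the fold threshold in either fit. ERAP2, an aminopeptidase that trims peptides in the endoplasmic reticulum, passed the adjusted p at 0.0053 but not the fold (log2 fold change 0.68 ± 0.13).

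The general chaperones of the endoplasmic reticulum that assist heavy chain folding had negative values. PDIA3 was at 336, 347 and 298 CPM in BCSC, against 683, 686 and 571 CPM in non-BCSC. The log2 fold change of -0.98 ± 0.11 passed the adjusted p (edgeR, 0.00059) but not the fold, and PDIA3 was called lower in 7 of 14 alternatives, at -1.07 with other size factors, -1.04 by DESeq2, -1.13 with at least 10 counts per library, -1.08 with GC content alone corrected, -1.22 with background removed, and without BCSC replicate 1 or non-BCSC replicate 3. Calnexin (CANX) had a log2 fold change of -0.49 ± 0.09 (edgeR adjusted p = 0.0043), and calreticulin (CALR) had -0.35 ± 0.16 (edgeR adjusted p = 0.12). CALR was called lower under both composition corrections (-1.31 and -1.07). PSMB10, the third immunoproteasome subunit, was at 5.71, 1.83 and 1.996 CPM in BCSC, against 0.74, 0 and 0.29 CPM in non-BCSC and was not called (edgeR adjusted p = 0.070). HLA-F had a log2 fold change of 1.25 ± 0.42 with overlap between the groups and was not called (edgeR adjusted p = 0.0502). Its adjusted p was 0.0305 without BCSC replicate 3 and 0.0362 without non-BCSC replicate 1, and 0.118 to 0.185 in the other fits that left out 1 library. It had 0.13 with GC content and length corrected and 0.45 with GC content alone corrected (edgeR adjusted p = 0.79 and 0.35). HLA-G did not pass the filter. The median log2 fold change of the 14 partners was 0.93.

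Of the 13 regulators, all of which passed the filter, 2 rose and none fell, a count to be read against the 8.85% of all genes called higher. IRF1, the interferon-induced factor that binds the IRF motif, was at 47.4, 36.5 and 30.9 CPM in BCSC, against 7.84, 7.16 and 6.90 CPM in non-BCSC. The non-BCSC values were close together and far below the BCSC values, with a log2 fold change of 2.39 ± 0.24 (edgeR adjusted p = 0.00039). RELA, a subunit of NF-kappaB, was at 61.4, 51.3 and 36.2 CPM in BCSC, against 22.3, 15.5 and 13.7 CPM in non-BCSC, a log2 fold change of 1.53 ± 0.26 (edgeR adjusted p = 0.0036). RFX5, a subunit of the complex that binds class I and class II promoters, passed the adjusted p at 0.0086 but not the fold (log2 fold change 0.83 ± 0.17), as did NFKB1 at 0.022 (0.61 ± 0.16). The median log2 fold change of the 13 regulators was 0.43.

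**Figure D3:**
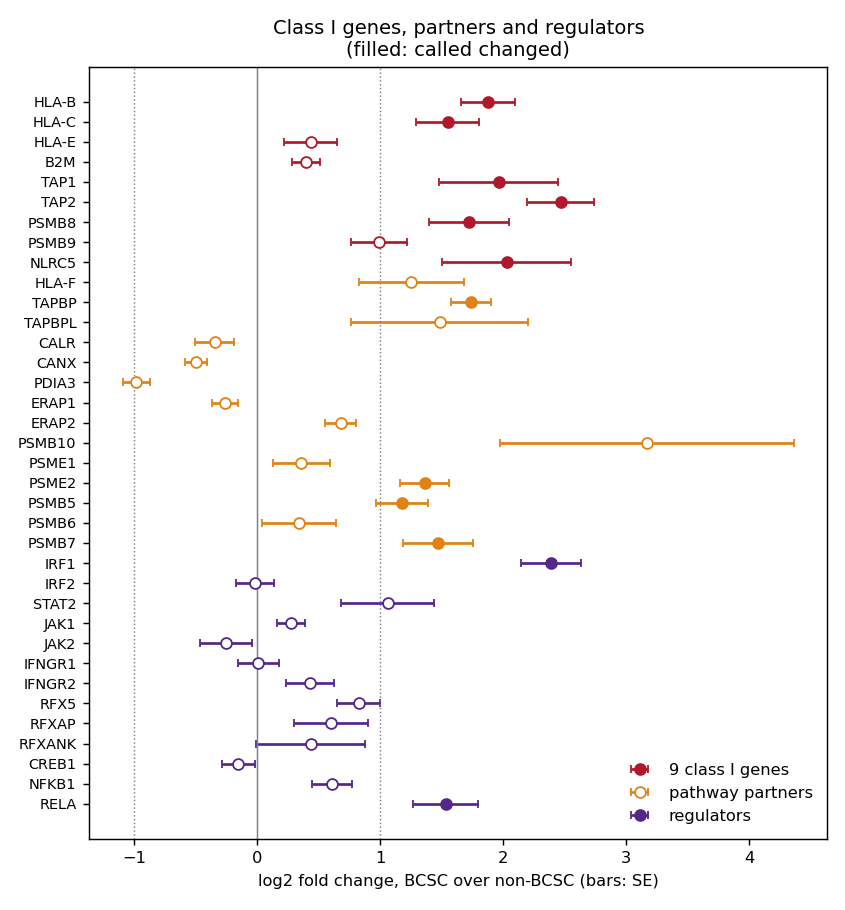
Log2 fold change (BCSC over non-BCSC, bars show SE) of the 9 class I genes, 14 partners and 13 regulators, with filled points for called genes and dotted lines at a fold of 2. TAP2 (2.47) and IRF1 (2.39) are the largest called values, and PDIA3 (-0.98) is the lowest.

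Fold changes in this series rose with the base composition of the gene. The rank correlation of log2 fold change with GC content was 0.54 across the 20442 genes tested, which are not independent replicates. Among well counted genes, those averaging 500 counts or more, the median log2 fold change was 0.05 at 40% to 45% GC, 0.29 at 45% to 50%, 0.60 at 50% to 55% and 0.98 at 55% to 60%. Genes called higher made up 7.54%, 25.7% and 49.1% of the last 3 of these bins. Above 60% GC, where HLA-C lies, the median was 1.26 and 62.6% were called higher, and HLA-C itself had 1.55. The 6 called class I genes had a GC content of 48.5% (TAP2) to 60.3% (HLA-C), HLA-E had 55.2%, and B2M had 39.6%. HLA-B at 52.0% and TAP2 thus had fold changes well above the median of their bin, whereas HLA-E was below its own.

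The composition corrections named above left a trend with GC content over all genes tested. The rank correlation of log2 fold change with GC content was 0.54 uncorrected. It was -0.12 with GC content and length corrected and 0.27 with GC content alone corrected. The calls of the 9 genes changed as follows. With GC content and length corrected, 3 genes were called, namely HLA-B (1.17), TAP2 (2.20) and B2M (1.63). In that fit HLA-C had a log2 fold change of -0.11 and HLA-E of -0.72, and the median of all genes was -0.16. With only the GC trend of genes with at least 500 counts removed, a correction chosen after seeing the data, 3 genes were called again, namely HLA-B (1.26, edgeR adjusted p = 0.00018), TAP2 (2.11, 0.00072) and PSMB8 (1.01, 0.016). In that fit HLA-C had 0.51, PSMB9 0.37 and HLA-E -0.38, and TAP1 (1.05) and NLRC5 (1.19) had edgeR adjusted p-values of 0.11 and 0.051. The median of all genes was -0.30 in that fit. Of the 9 genes, HLA-B and TAP2 were called with either correction. IRF1 was called with both as well (1.60 and 1.73), whereas TAPBP had values of 0.43 and 0.83 and RELA 0.03 and 0.57.

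**Figure D4:**
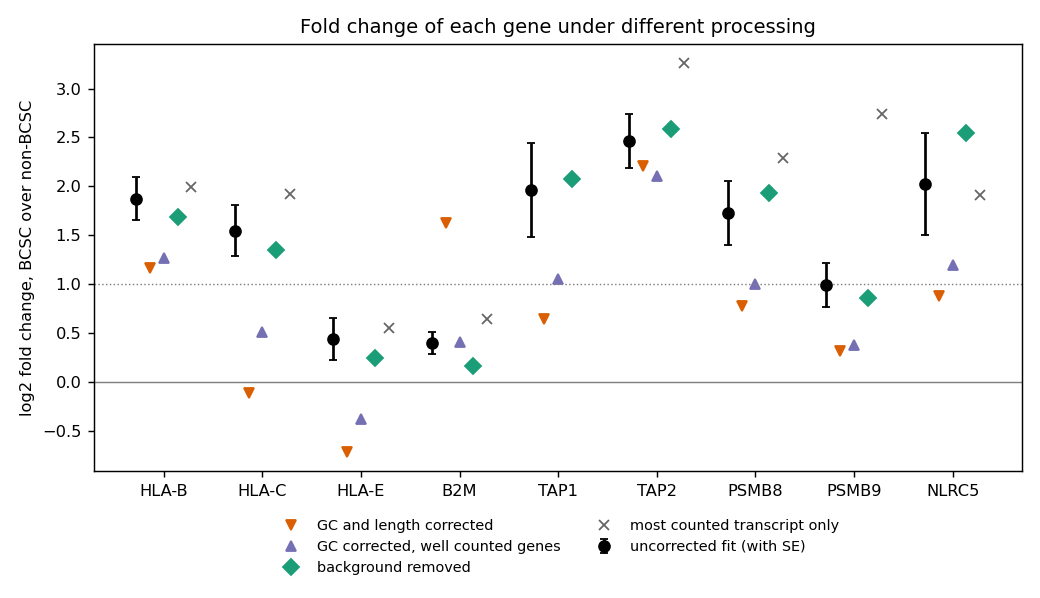
Log2 fold change of the 9 class I genes under the uncorrected fit (circles, bars show SE), both composition corrections (triangles), background removal (diamonds) and the most counted transcript alone (crosses, none for TAP1). The dotted line marks a fold of 2. TAP2 and HLA-B stay above the line under every setting shown, and HLA-E falls below 0 under both composition corrections.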

How the data were processed

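RNA was sequenced after random priming, with the second strand removed. The authors deposited counts per transcript for the 6 libraries. The submitters' processing notes name HISAT2, featureCounts, DESeq2 and hg38, without versions or roles, whereas the study's methods name hg19, so the build used for counting is unsettled and no gene coordinates are taken from it. Whether counting used strand is not given in the sources used here. PSMB9 overlaps PSMB8 and TAP1 on the opposite strand in GENCODE, so reads of overlapping exons may be shared. Transcripts were matched to GENCODE v44 (GRCh37 mapping) by identifier, 98.8% of them, and summed per gene. Unmatched ones held 0.271% of counts. Genes were tested with edgeR 4.0.16 (TMM, filterByExpr, robust quasi-likelihood fit) in R 4.3.3 with Benjamini-Hochberg adjustment over all genes, and DESeq2 1.42.0 was an alternative. The function was tested on simulated counts. CPM use TMM-scaled library sizes, and lengths are weighted by transcript counts. The olfactory receptor level and its subtraction instead use the plain mean length of a gene's transcripts. Marker sums use unscaled totals. Named were the 9 genes, their most counted and called transcripts, called partners and regulators, and others that a sentence needed. Some genes of the lists are not reported here. Members and lists were chosen with earlier results of these data known. Replicates differed by 15.2 to 42.1 times counting error (chi-square per degree of freedom), so no pair agreed within sampling noise. The fits held group as the only term, and alternatives changed scaling, filter, composition, background or libraries.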

Additional observations from a re-analysis of the deposited data

How the results depend on the processing

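Of the 9 class I genes, 5 to 7 were called in the fits that left out 1 library, and HLA-B, HLA-C, TAP1, TAP2 and PSMB8 were called in all 6 of them. Of the same genes, 3 were called with GC content and length corrected, 3 with the GC trend of well counted genes removed (added after seeing the data) and 1 of 8 tested with only the most counted transcript of each gene, HLA-B. Over all genes 7.25%, 1.99% and 3.24% were called higher in these fits, 6.06% by DESeq2 and 15.3% with no minimum fold. Of the partners, 7 passed the adjusted p with no minimum fold, 7 were called by DESeq2 (6 higher and 1 lower), and 3 were called under each composition correction (2 higher and 1 lower with length, 1 higher and 2 lower without). Of the regulators, 4 passed with no minimum fold, 4 were called with GC content and length corrected (3 higher and 1 lower) and 1 with the trend of well counted genes. Of the transcripts, 5 were called by DESeq2 and 1 with at least 10 counts required in every library. With GC content and length corrected the sign turned for HLA-C (-0.11), HLA-E (-0.72) and PSMB6 (-0.72). With the trend of well counted genes it turned for HLA-E (-0.38) and PSMB6 (-0.47). The cause was not tested.

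With a replicate block the same number of class I genes, 6, was called, along with 0 transcripts. The labels share only replicate numbers: the deviations of same-numbered libraries correlated at 0.247, 0.041 and 0.260, so the numbers were not taken to pair the samples. DESeq2's size factors in edgeR moved the median log2 fold change of all genes from -0.05 to -0.14 and called 6 class I genes. B2M had an adjusted p of 0.050 in that fit, 0.063 where each library had to hold at least 10 counts, and 0.28 with background removed. At these depths TAP1 and NLRC5 rest on 33 and 27 counts in non-BCSC replicate 2, where the floor was 0.263 CPM.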

Other observations

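A pair of gene groups next to the class I pathway were read after their values had been seen. Of the ligands of NKG2D, the activating receptor of natural killer cells, ULBP2 was at 13.3 ± 3.81 CPM in BCSC and 3.85 ± 2.42 CPM in non-BCSC (SD, n = 3), a log2 fold change of 1.79 ± 0.51 (edgeR adjusted p = 0.028). It was the only one of the tested ligands to be called, where 8.85% of all genes tested were called higher. No composition-corrected value is given for ULBP2. ULBP3 had a log2 fold change of 0.84 ± 0.32 (edgeR adjusted p = 0.075) and MICA had 0.36 ± 0.31 (edgeR adjusted p = 0.40), and MICB did not pass the filter. RAET1G had 0.68 ± 1.28 (edgeR adjusted p = 0.71), and RAET1E had a negative value, -1.34 ± 0.93 (edgeR adjusted p = 0.30). BRD2, a bromodomain gene of the class II region, had a log2 fold change of 0.61 ± 0.15 (edgeR adjusted p = 0.017). PSMB8-AS1, the antisense partner of PSMB8, was at 4.51 ± 1.81 and 3.26 ± 0.93 CPM and was not called (edgeR adjusted p = 0.56).

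CIITA, the class II counterpart of NLRC5, was at 1.74 ± 0.97 CPM in BCSC and 3.36 ± 2.07 CPM in non-BCSC, with a log2 fold change of -0.94 ± 0.82 (edgeR adjusted p = 0.41). Per kilobase CIITA was at 0.259 CPM in non-BCSC, below NLRC5 at 1.08, which was itself close to the background. Among the markers, CD44, a surface marker used for breast cancer stem cells, was at 2644 ± 158 CPM in BCSC and 1456 ± 195 CPM in non-BCSC, a log2 fold change of 0.86 ± 0.11 (edgeR adjusted p = 0.0011), which passed the adjusted p but not the fold.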
